A study of Mus musculus with 96 samples.

Results

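The forebrain and midbrain of wild-type (WT) mouse embryos were compared with the other tissues dissected from embryos of the same stage, to see which genes were expressed mainly in the brain at the embryonic stage E11.5. The WT brain made up 12 of the 96 libraries of the series, 3 each for male forebrain, female forebrain, male midbrain and female midbrain. The 36 WT libraries of 6 other tissues, the pre-somitic mesoderm (PSM), forelimb bud, hindlimb bud, heart, liver and lung bud, served for comparison, also with 3 libraries for each tissue and sex. All embryos were labelled C57BL/6J. Per the paper, a floxed *Firre* allele was targeted in JM8 embryonic stem cells. The *Firre* locus was then deleted in mice, by mating floxed females to CMV-Cre males. The deletion was backcrossed to C57BL/6J for 3 generations, and WT embryos came from mothers heterozygous for it. The ∆*Firre* embryos, which carry that deletion on the X chromosome (males hemizygous, females homozygous), were used as a second set of libraries and for a comparison of the genotypes within the brain. The sources do not say whether tissues of 1 embryo were paired.

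The values are FPKM, the number of fragments of a gene scaled to transcript length and to the size of the library, so that levels of different genes can be set side by side. The table gives 1 value for each group of 3 libraries and no value per library. No spread between replicates is therefore known, and no difference below carries an error, a number of replicates or a test. A gene was called brain-enriched when its lowest value among the 4 WT brain groups was at least 2-fold above its highest value among the other 12 WT groups, on the log2(FPKM + 1) scale. The gap between those values is called the closest difference. By this rule 413 genes were brain-enriched, 2.62% of the 15768 genes that reached 1 FPKM in at least 1 of the 16 WT groups. All 413 passed that filter, and each of them passed it through its brain values. The rule used the levels themselves, so the enrichment of these genes describes how they were chosen. The same rule gave 694 genes for the liver, 539 for the heart, 127 for the PSM, 101 for the lung bud and 53 for both limb buds as 1 tissue. A single tissue had to clear the other 14 WT groups with the lower of its male and female values. Only the limb buds, with 4 groups against 12, were set up as the brain was, so these counts are not like for like.

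At this stage the brain is a tube of dividing progenitors that line the ventricle, and the first neurons collect at its outer surface. Progenitors are held in the cycling state by SOX transcription factors and by Notch signalling through HES repressors, and proneural factors release them to become neurons. Patterning along the tube places forebrain genes in front and midbrain genes behind, while HOX genes act further back in the hindbrain, the spinal cord and the trunk. In whole tissue, a lower share of a cell type and less RNA per cell cannot be told apart.

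The brain groups carried the genes that define neural tissue. Values of the 4 brain groups are given throughout in the order male forebrain, female forebrain, male midbrain and female midbrain. *Otx2*, a homeobox factor of the fore- and midbrain (chr14:48656781-48667644, mm10), was at 51.6, 40.9, 170.4 and 154.5 FPKM, and at 0.151 FPKM or less in the 12 other groups. *Sox1*, a factor of neural progenitors (chr8:12395519-12399555), was at 19.6, 20.6, 17.4 and 16.4 FPKM against at most 0.0760 FPKM elsewhere. *Tubb3*, the neuronal beta-tubulin (chr8:123411553-123422015), was at 400.7, 409 and then 715 and 603 FPKM, and at 1.26 to 8.69 FPKM elsewhere. The brain and other groups were far apart for these 3 genes. *Fabp7*, a fatty acid binding protein of radial glia (chr10:57784923-57788450), was at 362, 395, 554 and 532 FPKM and had the narrowest gap of the markers, since the PSM held it at up to 123 FPKM. All 4 markers met the rule, with closest differences of 5.18 (*Otx2*), 4.02 (*Sox1*), 5.37 (*Tubb3*) and 1.55 (*Fabp7*).

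**Figure D1:**
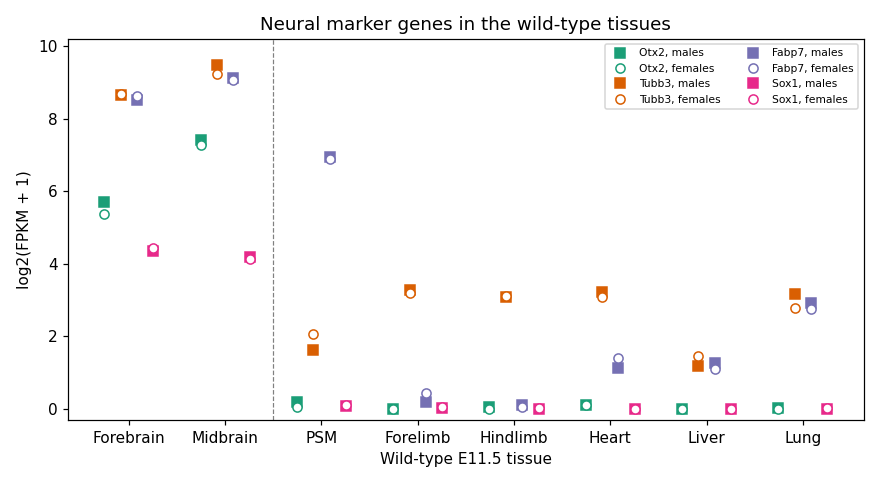
Levels of 4 neural marker genes in the 16 WT groups, on the log2(FPKM + 1) scale, with filled squares for males and open circles for females. The 2 brain regions lie left of the dashed line. *Otx2*, *Tubb3* and *Sox1* are high only there among these 8 tissues, while *Fabp7* reaches 123 FPKM in the PSM.

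Markers of other cell types were present in the brain groups at the levels that follow, and none of these genes was brain-enriched. The summed level of 10 red blood cell genes was 7440 to 10200 FPKM in the 4 brain groups, against 6460 to 53000 FPKM elsewhere. The 8 endothelial genes summed to 74.3 to 88.7 FPKM in the brain and up to 306 FPKM in the heart. The 10 mesenchymal and meningeal genes summed to 350 to 511 FPKM in the brain and up to 735 FPKM in the lung bud. One of them, *Lum*, which codes for a collagen-binding proteoglycan, was higher in the brain (42.7 to 56.4 FPKM) than in any other tissue (at most 30.4 FPKM, in liver). The 8 microglial and macrophage genes summed to 29.6 to 46.7 FPKM. All 8 were higher in midbrain than forebrain in both sexes, beside 41.7% of all genes tested. The 9 genes of neural crest and peripheral neurons reached 28.9 FPKM in midbrain and 53 FPKM in lung bud. The 6 heart muscle genes and the 5 hepatocyte genes summed to 1.63 and 0.497 FPKM at most in a brain group. The part of these cells in the gene lists below was not tested.

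Relative depth, read from the lowest steps of the FPKM values, was 3.03 to 3.25 times that of the shallowest WT group (female lung bud) in the male brain groups and 2 to 2.14 times in the female ones. Between 12944 and 13318 genes were at 1 FPKM or more in a brain group. The male and female midbrain groups differed in markers of the neighbouring region. *Tbr1*, a factor of cortical neurons, was at 0.0774 FPKM in male and 2.27 FPKM in female midbrain, and *Eomes*, a factor of their progenitors, was at 0.1025 and 3.16 FPKM. The summed level of 7 surface ectoderm genes was 21.1 FPKM in female midbrain, within the forebrain range of 17.7 to 22.2 FPKM, and 10.8 FPKM in male midbrain. Genes were called higher in 1 region only where the difference held in both sexes.

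The brain-enriched genes spanned a wide range of levels. Their mean over the 4 brain groups was at least 100 FPKM for 22 genes, at least 10 FPKM for 233 and under 5 FPKM for 67, and the lowest was 1.27 FPKM. The median of these means was 11.7 FPKM, beside 9.13 FPKM over all genes tested. Of the 413 genes, 194 stayed under 1 FPKM in all 12 other groups, and 37 stayed under 0.1 FPKM. At 4-fold, 149 genes were past the threshold, at 8-fold 53, at 16-fold 18 and at 32-fold 5. The tissue that came closest to the brain was the lung bud for 131 genes, the PSM for 94, the forelimb for 86, the heart for 64, the hindlimb for 29 and the liver for 9.

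**Figure D2:**
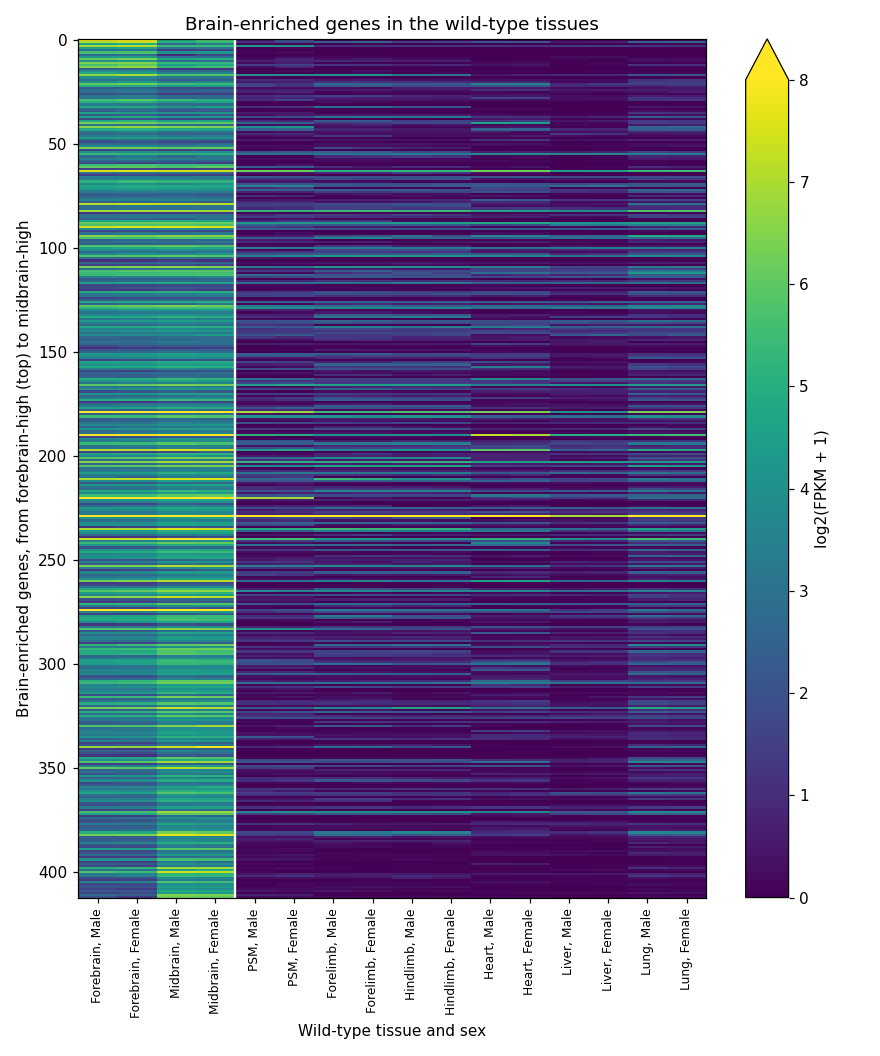
The 413 brain-enriched genes in the 16 WT groups, 1 row a gene, coloured by log2(FPKM + 1), with values above 8 drawn in the colour of 8. Rows run from genes higher in forebrain to genes higher in midbrain, and the white line parts the 4 brain groups from the 12 others. The rows are brighter in the 4 brain groups, where these genes made up 2.21% to 3.35% of all FPKM, than right of the line, where they made up 0.096% to 0.306%.

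Tubulins led the 10 brain-enriched genes with the highest mean level, among which were also *Tubb3*, *Fabp7* and *Pantr1*. *Tuba1a*, an alpha-tubulin of young neurons, was at 1836, 1907, 2840 and 2652 FPKM, and at 121 to 546 FPKM elsewhere. *Tubb2b*, a beta-tubulin, was at 798, 794.5, 1115 and 953 FPKM, and at most 125 FPKM elsewhere. Tubulin genes are close paralogs, so reads shared among them leave their separate values uncertain. *Ckb*, the brain form of creatine kinase, was at 663, 628, 993 and 744.5 FPKM, and reached 150.3 FPKM in the heart. Both tubulins and *Ckb* were higher in midbrain than in forebrain in each sex. *Nes*, the intermediate filament of progenitors, was at 170.5, 172, 274 and 248 FPKM against at most 47.4 FPKM. *Map2*, which binds dendritic microtubules, was at 129, 152.5, 191 and 201 FPKM against at most 44.7 FPKM, and *Msi1*, an RNA-binding protein of progenitors, was at 125, 124, 200 and 176 FPKM against at most 43.7 FPKM. *Pea15a*, a small phosphoprotein abundant in astrocytes, was the least restricted of the 10, at 167.5 to 185 FPKM in the brain and up to 76.0 FPKM in the heart. On median-of-ratios scaling its closest difference was 0.88, under the threshold.

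The 10 genes with the widest gap to the other tissues were a mix of noncoding RNAs, transcription factors and neuronal proteins. *Pantr1*, a long noncoding RNA (lncRNA) gene next to *Pou3f3*, had the largest closest difference, 5.94, with 171.5, 193, 200 and 182 FPKM in the brain and at most 1.81 FPKM elsewhere. *Pou3f3*, a POU-domain factor 942 bases away from *Pantr1* on chromosome 1, was at 34.5, 41.8, 36.9 and 35.7 FPKM against at most 0.451 FPKM. Both genes were thus nearly level between the regions. *Tubb3* and *Otx2* followed *Pantr1*. *Stmn3*, a tubulin-binding stathmin, had a closest difference of 5.06, and *Neurog2*, a proneural factor, of 4.90, with 41.9, 47.5, 42.3 and 39.3 FPKM. *Pax6*, a homeobox factor of dorsal progenitors, was at 86.8, 89.2, 38.05 and 37.8 FPKM, higher in forebrain in both sexes, and at 0.553 FPKM or less elsewhere. *Hes5*, the Notch-dependent repressor, ran the other way between the regions, at 63.1, 58.8, 140 and 113 FPKM.

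Among the same 10 genes, *Mir124-2hg* and *C130071C03Rik* are named or annotated as host transcripts of microRNAs, short RNAs that silence mRNAs through a seed at bases 2 to 8. *Mir124-2hg*, a lncRNA gene on chromosome 3 named for miR-124, was at 39.2, 42.4, 68.1 and 73.1 FPKM and at most 0.2499 FPKM elsewhere. RefSeq places 3 genes for miR-9, and all 3 lay within a brain-enriched transcript on the same strand. They are *Mir9-1* in *Gm3764* (chr3:88206673-88229959), *Mir9-2* in *C130071C03Rik* (chr13:83721381-83741308) and *Mir9-3* in *AI854517* (chr7:79500026-79534403). The mature sequences of miR-9 are printed because these 3 hosts share them, and those of miR-135a and miR-153 because enriched genes hold their genes too, with the seed in capitals (RefSeq, GRCm38.p6).
miR-9-5p: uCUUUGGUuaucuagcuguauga
miR-9-3p: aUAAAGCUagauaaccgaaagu
miR-135a-5p, in *D030055H07Rik*: uAUGGCUUuuuauuccuauguga
miR-153-3p, in *Ptprn2*: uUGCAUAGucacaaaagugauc
These 4 mature forms have different seeds.

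All 3 miR-9 hosts were at least 2-fold higher in forebrain than midbrain in both sexes. *Gm3764* was at 218, 254, 27.4 and 54.9 FPKM, *C130071C03Rik* at 87.3, 106.5, 38.7 and 46.3 FPKM and *AI854517* at 67.1, 81.5, 24.3 and 31.98 FPKM. In the other 12 groups, *Gm3764* reached 3.54 FPKM and the 2 other hosts 0.802 and 0.826 FPKM, each time in female PSM. For *Gm3764* the female midbrain value was about double the male one, in the group that also held more *Tbr1*, and their link was not tested. *D030055H07Rik*, the host of miR-135a, was level at 12.9, 12.4, 10.6 and 11.53 FPKM. *Ptprn2*, the host of miR-153, codes for a protein of secretory vesicles and was higher in midbrain at 6.38, 5.39, 13.4 and 12.8 FPKM. In all, 20 microRNA genes lay inside 19 brain-enriched genes on the host's strand, and the share over all genes tested was not counted. The host RNAs were measured here and the mature microRNAs were not.

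Gene lists drawn up by cell type and function differed in how many of their genes met the rule. They were chosen with earlier results of these data known, so their shares are given as a description. The median closest difference over all genes tested was -0.64, meaning that most genes had a higher value in some other tissue than their lowest brain value. The lists of progenitor, proneural and cytoskeletal genes and of OTX, POU3F, LHX and ZIC factors had medians above 1, and the lists of HOX genes and of other cell types had medians from -0.94 to -10.64 with no brain-enriched gene.

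**Figure D3:**
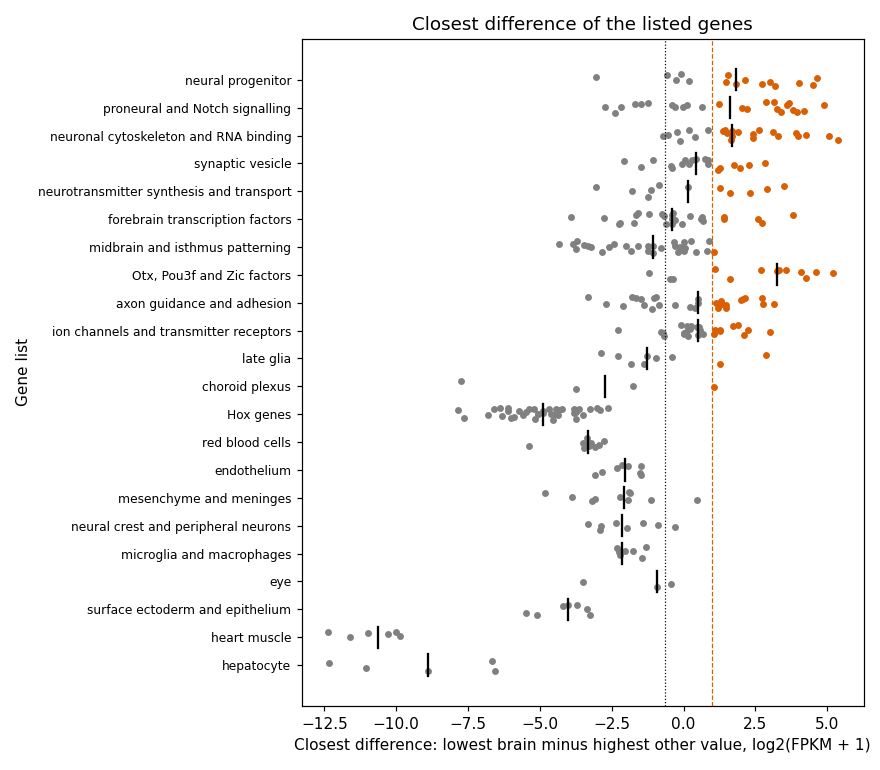
Closest difference of each gene of 22 lists that reached 1 FPKM in a WT group, with brain-enriched genes in orange and the others in grey. Black bars are list medians, the dotted line is the median of all genes tested (-0.64), and the dashed line is the 2-fold threshold. The upper lists hold the orange points, and the 10 lists from Hox genes down hold none.

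Of 15 neural progenitor genes, 10 were brain-enriched, or 66.7%, beside 2.62% of all genes tested. Besides *Fabp7*, *Nes*, *Msi1* and *Hes5* they included *Sox2*, which maintains stem cells and was at 95.4, 106, 87.0 and 78.5 FPKM in the brain and up to 17.3 FPKM in the PSM. *Sox3* and *Sox21*, relatives of *Sox1* and *Sox2*, were also brain-enriched, at 20.8 to 24.8 and 14.1 to 18.6 FPKM. The 5 progenitor genes that missed the rule were shared with other tissues. *Hmga2*, a chromatin protein of young progenitors, was at 153 and 179 FPKM in forebrain and 37.6 and 45.6 FPKM in midbrain, but at up to 320 FPKM in the hindlimb. *Cdh2*, *Prom1*, *Sox9* and *Slc1a3* each reached, in another tissue, a level above their lowest brain value or within 2-fold below it.

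The proneural and Notch list had 13 brain-enriched genes of 24 (54.2%). *Hes6*, which promotes neuronal differentiation, was at 92.8, 89.0, 126 and 122 FPKM, and *Mfng*, a glycosyltransferase acting on Notch, was at 51.1 to 57.7 FPKM. Factors of newborn neurons were lower but almost absent elsewhere. *Nhlh2* was at 21.7, 21.4, 57.7 and 61.0 FPKM against at most 0.233 FPKM, and *Neurod1* was at 9.29 to 14.4 FPKM against at most 0.0827 FPKM. *Dll1*, a Notch ligand also used in somite segmentation, was at 31.5 to 38.7 FPKM in the brain but at up to 76.5 FPKM in the PSM, and missed the rule.

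The list of neuronal cytoskeleton and RNA-binding genes ran in a single direction between the regions. Of 24 genes, 17 were brain-enriched (70.8%). All 24 were higher in midbrain than forebrain in both sexes, beside 75.5% of brain-enriched genes and 41.7% of all genes tested. The difference was at least 2-fold for 10 of the 24, beside 13.6% and 2.06%. *Stmn2*, a stathmin of growing axons, was at 74.0, 83.5, 204 and 192 FPKM. *Ina*, a neuronal intermediate filament, was at 32.3, 36.6, 117 and 115 FPKM, and *Mapt*, the axonal protein tau, was at 8.37, 10.5, 35.9 and 35.2 FPKM. The neurofilament genes *Nefl* and *Nefm* were far higher in midbrain (65 FPKM or more) than in forebrain (under 8 FPKM), and missed the rule because their forebrain values did not stand clear of the lung bud. *Dpysl3*, a collapsin response protein, missed it through the heart, at up to 184 FPKM.

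Genes of synapses and signalling were lower and less restricted. Of 19 synaptic vesicle genes, 6 were brain-enriched (31.6%). *Syt11*, a synaptotagmin that does not bind calcium, was at 79.7, 86.2, 94.9 and 87.1 FPKM, *Syp*, the vesicle protein synaptophysin, at 12.1 to 19.9 FPKM and *Snap25*, part of the fusion machinery, at 5.44, 6.38, 15.7 and 15.8 FPKM. Among 11 tested genes of transmitter synthesis and transport, 5 were brain-enriched. *Slc17a6*, a vesicular glutamate transporter, was at 12.1, 13.3, 15.9 and 18.0 FPKM. *Gad2*, which makes GABA, was at 6.80 to 7.77 FPKM with at most 0.0545 FPKM elsewhere. *Th*, the first enzyme of dopamine synthesis, was at 4.08 to 5.34 FPKM in both regions and at up to 1.14 FPKM in the PSM. *Ddc*, which acts after *Th*, missed the rule through the heart, at up to 26.7 FPKM.

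Of 27 tested ion channel and receptor genes, 9 were brain-enriched (33.3%), with *Cacng4*, *Scn3a*, *Kcnk10* and *Chrnb2* the most abundant at brain means between 9.16 and 31.4 FPKM. Of the genes that were not enriched, *Cacnb3*, a calcium channel subunit, reached the highest level outside the brain, 31.6 FPKM in the lung bud. In the axon guidance and adhesion list, 13 of 29 tested genes were brain-enriched (44.8%). *Lrrn1*, a leucine-rich repeat membrane protein, was among the 5 genes of this list higher in forebrain in both sexes, at 99.0, 129, 51.7 and 55.0 FPKM. *Cntn2*, an adhesion molecule of early axons, was at 9.07, 10.3, 37.5 and 38.6 FPKM, *Dcc*, the netrin receptor, at 13.1, 17.9, 24.8 and 27.0 FPKM and *Robo3*, a receptor of commissural axons, at 7.20, 6.85, 21.3 and 30.6 FPKM. *Nrp1*, a semaphorin receptor shared with vessels, was at 6.501 to 7.43 FPKM in the brain and at up to 47.7 FPKM in the heart.

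Homeobox and zinc finger factors of the OTX, POU3F, LHX and ZIC families gave the largest share of any list, 10 of 13 (76.9%), with a median closest difference of 3.26. *Zic1* was at 78.8, 74.6, 65.3 and 70.3 FPKM against at most 2.44 FPKM. *Pou3f2* was at 15.8, 15.5, 47.3 and 45.1 FPKM and *Pou3f4*, which is X-linked, at 11.49, 11.6, 51.0 and 44.0 FPKM, both higher in midbrain. *Zic2* and *Zic5* were among those that missed the rule, *Zic2* through the forelimb at up to 22.2 FPKM.

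Region-specific factors met the rule, which asks for both regions, less often than the genes of the neural lists above. Of 26 tested forebrain factors, 5 did (19.2%, beside 2.62% of all genes tested). Among them were *Nr2e1* (46.0, 51.0, 15.5 and 18.0 FPKM), *Six3* (9.27, 8.19, 6.20 and 5.80 FPKM), *Gsx1* and *Otp*. At least 2-fold higher in forebrain than midbrain in both sexes were 13 of the 26, beside 0.805% of all genes tested, and 2 were so in midbrain. *Gsx1* was among these 2, at 1.87 and 1.65 FPKM in forebrain and 7.95 and 6.07 FPKM in midbrain. Of 31 midbrain and isthmus genes only *Tal2*, a factor of midbrain GABA neurons, met the rule (3.23%). At least 2-fold higher in midbrain than forebrain in both sexes were 23 of the 31, beside 2.06% of all genes tested. *Tal1*, a relative of *Tal2* that also acts in blood cells, was at 16.2 and 14.2 FPKM in midbrain and at up to 60.4 FPKM in the liver. Which cells held it in midbrain was not tested. The late glial list had 2 brain-enriched genes of 9 tested (22.2%), *Olig2* (14.1, 12.2, 8.06 and 6.93 FPKM) and *Olig1*. Its median closest difference was -1.29, below that of all genes tested (-0.64). The myelin gene *Mbp* was among those that missed the rule, at 6.18 to 8.18 FPKM in the brain and up to 16.6 FPKM in liver. *Folr1*, a folate receptor, was the brain-enriched gene of the choroid plexus list (5.62 to 7.22 FPKM), and it fell short of the rule in ∆*Firre* tissues, with a closest difference of 0.80. *Ttr*, the main secreted protein of that plexus, was at 7.42 and 11.49 FPKM in forebrain and at up to 215 FPKM in liver.

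The HOX genes lay at the opposite end. Of 39 HOX genes, 38 were under 0.1 FPKM in all 4 brain groups, none was brain-enriched and their median closest difference was -4.89. Their summed level was 0.237 to 1.17 FPKM in the brain, 965 to 1080 FPKM in the PSM and 735 to 975 FPKM in the limb buds. *Hoxd13*, a gene of the distal limb, reached 228 FPKM in the forelimb and 0.0912 FPKM in female midbrain. Brain-depleted genes, whose highest brain value was at least 2-fold below the lowest value elsewhere, numbered 26 (0.165% of genes tested). This rule asks for expression in all 6 other tissues.

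Within the brain, the enriched genes were more often higher in midbrain. Of the 413, 312 (75.5%) were higher in midbrain in both sexes and 64 higher in forebrain, while 37 changed order between the sexes. Over all genes tested, 41.7% were higher in midbrain in both sexes. The median difference, forebrain minus midbrain as the mean of the sexes, was -0.46 on the log2 scale for the enriched genes and 0 over all genes tested. At least 2-fold in both sexes, 56 enriched genes (13.6%) were higher in midbrain, beside 2.06% of all genes tested, and 16 (3.87%) were higher in forebrain, beside 0.805%. The choice of members used these same values, so the shares are given as a description.

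**Figure D4:**
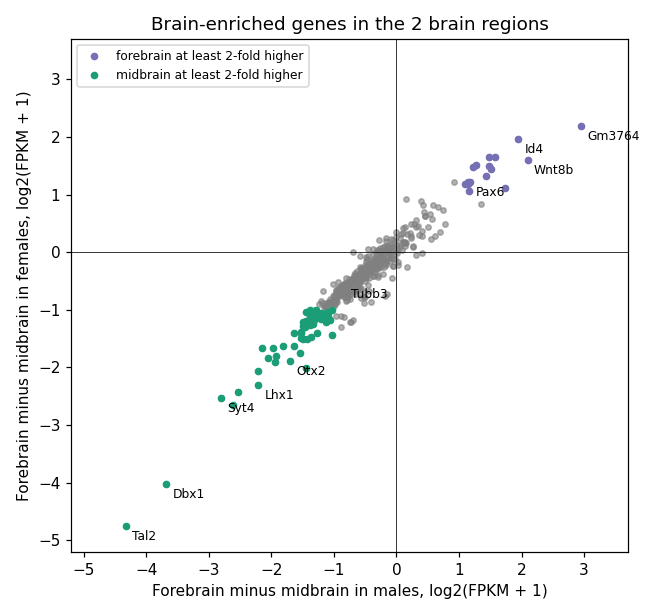
Forebrain minus midbrain for the 413 brain-enriched genes on the log2(FPKM + 1) scale, in males (horizontal) and in females (vertical). Green points are the 56 genes at least 2-fold higher in midbrain and purple points the 16 at least 2-fold higher in forebrain in both sexes. Most points lie below 0 on both axes.

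The genes furthest toward the midbrain were led by transcription factors. *Tal2* was at 2.87 and 1.51 FPKM in forebrain and 76.3 and 66.4 FPKM in midbrain, and *Dbx1*, a factor of interneuron progenitors, was at 5.85, 4.15, 86.6 and 82.7 FPKM. *Lhx1*, a LIM homeobox factor, was at 3.51, 3.06, 19.9 and 19.1 FPKM, and the lncRNA *Lhx1os* at 3.77, 3.57, 28.4 and 27.8 FPKM. The others were *Pou3f4*, *Cntn2*, *Syt4* (1.97, 2.36, 19.7 and 18.4 FPKM), *Cdk5r2*, an activator of the neuronal kinase CDK5 (2.07, 1.67, 16.8 and 13.3 FPKM), *Chgb*, a granin of secretory granules (2.29, 2.65, 14.3 and 14.2 FPKM), and *3110035E14Rik* (1.51, 1.64, 8.65 and 8.93 FPKM). These genes were picked for the size of this difference in both sexes, so the gap between their regions describes the choice.

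*Lhx1* and *Lhx1os* are transcribed away from each other, with 125 bases between their starts at chr11:84525535-84525659. That stretch is shown because both genes differed between the regions in the same direction, on the strand of *Lhx1os* with a CCAAT match in capitals (RefSeq, GRCm38.p6).
Lhx1os to Lhx1 gap: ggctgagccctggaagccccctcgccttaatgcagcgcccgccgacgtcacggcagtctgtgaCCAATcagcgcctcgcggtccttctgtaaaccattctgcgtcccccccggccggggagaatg
The letters CCAAT, searched on both strands, were found in 35.6% of the 289 promoters of brain-enriched genes in the RefSeq table, 38.6% of those of all genes tested and 37.9% of all promoters, which reach from 250 bases before a gene's start to 50 bases after it.

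The genes furthest toward the forebrain were *Gm3764* and *AI854517*, already described, *Id4*, an inhibitor of basic helix-loop-helix factors (129, 159, 32.8 and 40.2 FPKM), *Wnt8b*, a signal of the cortical hem (25.3, 31.5, 5.12 and 9.78 FPKM), and *Cntnap2*, a neurexin-like adhesion protein (121, 132, 40.1 and 41.3 FPKM). They also included *Nr2e1*, *Dmrta2*, a factor of cortical progenitors (14.6, 18.2, 5.63 and 5.90 FPKM), *Mlc1*, a membrane protein of astrocytes (6.997, 7.53, 1.87 and 2.03 FPKM), and the unplaced transcript *RP23-207N5.2* (22.1, 26.9, 7.30 and 7.87 FPKM). *Wnt8b* and *Gm3764* differed at least 1.5-fold between the sexes in midbrain, and with *Gm29478* they were the only 3 enriched genes to do so, beside 0.641% of all genes tested. In forebrain *Tal2* and *Olig3* did so, beside 0.26%.

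Genes of a single region were read with a second rule, added after the data had been seen, in which both values of a region were at least 2-fold above the highest of the other 14 WT groups. The forebrain had 60 such genes (0.381%) and the midbrain 181 (1.15%). Of the 60, 14 were also brain-enriched, and of the 181, 51. In forebrain the furthest apart included *Tbr1* (23.8 and 29.3 FPKM), *Eomes* (29.6 and 32.7 FPKM), *Emx1* (23.0 and 28.4 FPKM), a dorsal factor, and *Gsx2* (9.24 and 9.28 FPKM), a ventral one. The noncoding genes *3110039M20Rik*, *E330013P04Rik* and *Gm17750* stood with them. In midbrain they were *Cnpy1* (79.9 and 93.5 FPKM), which acts with FGF signalling at the isthmus, *En2* (31.4 and 30.2 FPKM), the engrailed factor, *Dmbx1* (13.8 and 13.1 FPKM), *Tfap2d* (11.1 and 11.3 FPKM), *Barhl1* (11.0 and 9.11 FPKM), *Nefl*, *Tal2* and *Dbx1*. The 60 forebrain genes summed to 404 FPKM in female and 301 FPKM in male midbrain, 25.7% and 19.1% of their mean forebrain sum, and 52 of the 60 were higher in the female than in the male midbrain group. In ∆*Firre* midbrain the sums were 316 FPKM in females and 366 FPKM in males. The cause was not tested.

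Some genes missed the brain-enriched rule through 1 tissue alone. Without the lung bud 47 genes joined, without the PSM 44, without the heart 41, without the forelimb or the liver 13 each, and without the hindlimb 7. The lung bud held back *Cntfr*, a receptor for ciliary neurotrophic factor, *Tubb4a*, *Nefm*, *Ly6h* and *Rgs2*. The PSM held back *Igfbp2* (188 to 289 FPKM in the brain and up to 258 FPKM in PSM), *Gadd45g*, *Dpysl5*, *Btg2* and *Gm38287*. The heart held back *Vim*, which codes for vimentin (842 to 962 FPKM in the brain and up to 654 FPKM in the heart), *Dpysl3*, *Ddr1*, *Kif1b* and *Rnd2*. For the forelimb they were *Arhgap33*, *Fzd3*, *Cyfip2*, *Dab1* and *Mturn*, and for the hindlimb *Gap43*, a growth cone protein (42.0, 49.8, 158 and 144 FPKM), *Igdcc3*, *Enho*, *Gm2694* and *Mfsd2a*. The liver held back *Adgrg1*, a receptor of neural progenitors (58.0 to 80.3 FPKM in the brain and up to 62.6 FPKM in liver), *Lum*, *H2-Ke6*, *D930028M14Rik* and *Vtn*. Just inside the threshold lay *Nrxn3*, *Gm29266*, *Mamld1*, *Optc* and *Tspyl4*, with closest differences of 1 to 1.01, and just outside it *BC024139*, *Nkx6-2*, *Pex5l*, *Ncam2* and *Ppfia3*, at 0.99 to 1.

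The brain-enriched genes were next read in the ∆*Firre* tissues, which are other libraries of the same 8 tissues. There, 388 of the 413 (93.9%) met the same rule, beside 2.76% of the genes tested in ∆*Firre*, and all 413 had a closest difference above 0. They made up 89.2% of the 435 genes that the rule gave in ∆*Firre*. The median closest difference of the 413 was 1.65 in WT and 1.75 in ∆*Firre*. The 25 that fell short all had a WT value of 1.39 or less, the highest that of *Clvs1*. The furthest below was *Gria2*, an AMPA receptor subunit, at 1.25 in WT and 0.68 in ∆*Firre*. *Gm3764* had the largest increase, from 2.64 to 5.04, and its highest value outside the brain was 3.54 FPKM in WT and 0.176 FPKM in ∆*Firre* tissues. Of the 16 genes higher in forebrain and the 56 higher in midbrain, 13 and 40 were so again in ∆*Firre*. The same share was not counted over all genes tested.

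**Figure D5:**
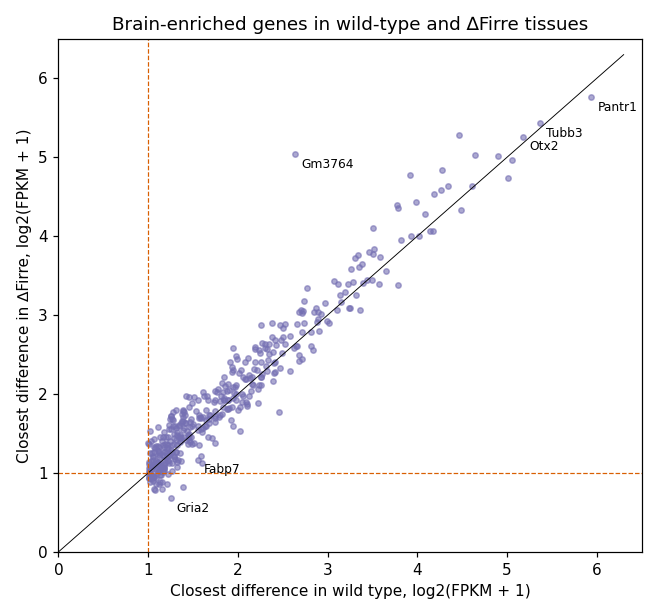
Closest difference of the 413 brain-enriched genes in WT (horizontal) and ∆*Firre* tissues (vertical), on the log2(FPKM + 1) scale, with the line of equal values and the 2-fold threshold dashed. All points lie above 0, and 388 lie on or above the horizontal threshold.

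Between genotypes, few brain-enriched genes were 1.5-fold or more apart with the same sign in males and females. *Firre* itself was at 30.3, 29.1, 22.7 and 29.6 FPKM in the WT brain and at up to 50.6 FPKM elsewhere, and it was not brain-enriched. In forebrain, 2 of the 413 genes were higher in ∆*Firre* and none was lower, 0.484% beside 0.192% of the 13036 genes compared (0.169% higher and 0.023% lower). *Otp*, a homeobox factor of the hypothalamus, was at 1.68 and 2.22 FPKM in WT and 6.26 and 5.15 FPKM in ∆*Firre* forebrain, in males and females. *Crym*, which binds thyroid hormone, was at 14.7 and 10.6 FPKM in WT and 29.0 and 18.4 FPKM in ∆*Firre*. In midbrain none of the 413 genes differed that far, beside 0.0151% of genes compared. The median difference of the enriched genes, ∆*Firre* minus WT, was 0.12 in male and 0.07 in female forebrain, and -0.06 in male and 0.06 in female midbrain, beside 0 to 0.01 over all genes tested.

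Features that the rule did not use are given beside the share over all genes tested. RefSeq placed 394 of the brain-enriched genes (95.4%). Of these, 365 (92.6%) were protein-coding, beside 94.6% of all genes tested and placed, and 29 (7.36%) were lncRNA genes, beside 4.66%. Their genomic span was over 100 kb for 24.6%, beside 13.9%, and its median was 27.8 kb, beside 22.7 kb. The X chromosome carried 4.06% of them, beside 3.43%. In 20 cases neighbouring enriched genes lay within 10 kb of each other, and 15 of these pairs included a lncRNA gene. In 14 pairs the annotated genes overlapped, as for *Six3* and *Six3os1* or *Sox2* and *Sox2ot*. Neighbours were not counted over all genes tested, so these counts are not read as a trait of the enriched genes. The library kit does not mark strand, so reads from such partners cannot be told apart where they overlap.

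Promoters were searched on both strands for short motifs. The core of the site bound by the neuronal silencer REST, known as RE1, was in 2 of 289 promoters of enriched genes (0.692%), beside 0.0505% of those of genes tested and 0.0333% of all. These genes were *Fbll1* and *Ttc9b*, chosen after their values were seen, at 1.31 to 3.39 and 1.75 to 2.50 FPKM in the brain and at most 0.0801 and 0.0407 FPKM elsewhere. In *Ttc9b* the match lay within the gene. *Hrh3*, a histamine receptor that missed the rule with a closest difference of 0.85, also held a match. The other genes tested with a match, *Fam163b*, *Lca5* and *Ogdhl*, had closest differences of -2, -0.53 and -0.44. Of the 5 upstream matches, the stretches of the 2 genes with a closest difference above 0 are shown with the motif in capitals, for *Fbll1* at chr11:35799028-35799102 and for *Hrh3* at chr2:180104546-180104620, both on the minus strand.
Fbll1: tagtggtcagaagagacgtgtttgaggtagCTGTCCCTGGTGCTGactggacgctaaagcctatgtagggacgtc
Hrh3: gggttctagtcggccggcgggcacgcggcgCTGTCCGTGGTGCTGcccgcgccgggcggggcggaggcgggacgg
The E-boxes CAGCTG and CAGATG, which proneural factors can bind, were in 17.6% and 14.9% of promoters of enriched genes, beside 15.2% and 11.7% of those of genes tested and 16.1% and 17.2% of all. The SOX motif AACAATG was in 4.5%, beside 1.92% and 3.87%, the octamer ATGCAAAT in 2.42%, beside 1.42% and 1.75%, and TATAAA in 7.96%, beside 7.55% and 14.2%. The median GC content of these promoters was 61.3%, beside 60.7% for genes tested and 52.7% for all.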

How the data were processed

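The authors made poly(A)+ libraries with a kit that does not mark strand, from 500 ng of total RNA (200 ng for lung and 80 ng for PSM), with 10 cycles of PCR, and sequenced them in pools that mixed genotypes. Per the methods and processing notes, reads were mapped to mm10 with TopHat2 2.1.1 and Bowtie2 2.2.8, and genes of GENCODE vM9 were quantified with Cuffdiff 2.2.1. The deposited values are the authors' FPKM, 1 per group of 3 libraries, for 28712 genes. Another 16 columns, each over males and females of a tissue and genotype, were left out, and no fold-change column was used.

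Values were transformed as log2(FPKM + 1), which understates differences of low genes, with Python 3.11.15, pandas 2.3.3 and NumPy 2.4.6. The enrichment rule was tested on simulated data. Genotype was compared in genes with a mean above 1 FPKM over a region's 4 values, without *Firre*. Relative depth is approximate, read from genes with 1 transcript in an older GENCODE annotation, whose lengths were used. Positions and sequences are from RefSeq on GRCm38.p6. Promoters and strands were present for only some genes, and protein sequences were not used here.

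Named genes were the 4 markers, the 10 enriched genes with the highest brain mean, the 10 with the largest closest difference, the 10 furthest toward each region, up to 4 enriched genes a list with the listed gene highest elsewhere, the 5 genes on each side of the threshold, genes changed with genotype, up to 5 genes joining without a tissue, and *Firre*. Others, among them *Tbr1*, *Eomes*, *Ina*, *Mapt*, *Nhlh2*, *Neurod1*, *Sox2*, *Sox3*, *Sox21*, the microRNA hosts and the genes of a single region, were chosen after their values were seen. The members, lists and rules were chosen with earlier results of these data known. Some genes that the naming rule picked are not reported here.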

Additional observations from a re-analysis of the deposited data

Results flagged for a closer look

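*Wnt8b*, a brain-enriched signalling gene, differed between genotypes in opposite directions in the sexes in midbrain. It was at 5.12 FPKM in WT and 9.89 FPKM in ∆*Firre* male midbrain, a difference of 0.83 on the log2(FPKM + 1) scale. In females it was at 9.78 FPKM in WT and 5.54 FPKM in ∆*Firre*, a difference of -0.72. The groups with the higher *Wnt8b* values, WT female and ∆*Firre* male midbrain, were also the ones with the higher summed level of the 59 other genes of the forebrain alone (394 and 356 FPKM, against 296 and 311 FPKM). Whether the sexes differ in this was not tested.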

How the results depend on the processing

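No paired analysis was possible because the columns carry no replicate numbers, and for the same reason no library was left out in turn. The count of 413 brain-enriched genes went to 185 with a pseudocount of 5 FPKM, 639 at 1.5-fold, 149 at 4-fold and 633 when the brain mean was set against the highest mean of another tissue. It was 714 for midbrain alone against the 6 other tissues, an alternative added after seeing the data. It lay between 368 and 586 under the other settings, which included each sex alone, no filter, median-of-ratios scaling and leaving out each other tissue. The 26 brain-depleted genes went to 64 and 4 with pseudocounts of 0.1 and 5 FPKM, 88 at 1.5-fold, 1 at 4-fold and 50 on means. At 4-fold, 161 of the 413 genes enriched at 2-fold in WT met the rule in ∆*Firre*, 1 gene was higher in forebrain and 7 in midbrain, and at 1.5-fold 148 were higher in midbrain. Enriched genes changed with genotype in forebrain numbered 4 with a pseudocount of 0.1 FPKM, 69 at 1.2-fold (16.7%, beside 9.57% of genes compared) and 0 at 2-fold, and in midbrain 4 at 1.2-fold (0.969%, beside 0.393%). Genes of the forebrain alone numbered 12 at 4-fold, and those of the midbrain alone 37 at 4-fold and 279 with a pseudocount of 0.1 FPKM. A looser threshold, a smaller pseudocount or fewer columns (1 sex alone, or a tissue left out) can only add genes under this rule. Of 71 enriched genes the rule named, all kept their call with a pseudocount of 0.1 FPKM and in each sex alone. Both results were fixed in advance, because these settings cannot lower the closest difference of an enriched gene. With a pseudocount of 5 FPKM 44 kept the call and with median-of-ratios scaling 64. None changed sign, which among these settings only the scaling could have brought about. Without values per library, no difference can be set against a replicate spread.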
